A study of Homo sapiens with 9 samples.

Results

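The 4 HOX clusters of the human genome were examined as 4 windows of hg19 in ATAC-seq peak lists of VCaP, a cell line from human prostate cancer. ATAC-seq marks open chromatin by where the transposase Tn5 inserts adapters. The windows were 200 kb around HOXA on chromosome 7, 150 kb around HOXB without HOXB13 on chromosome 17, 160 kb around HOXC on chromosome 12 and 150 kb around HOXD on chromosome 2. Merging the peaks of 9 lists at an overlap of 1 bp gave 94773 regions, and the 66 regions that overlapped a window were the members: 21 in HOXA, 15 in HOXB, 16 in HOXC and 14 in HOXD. They are numbered by ascending coordinate within each window, so that HOXC-r9 lies below HOXC-r10.

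There were 3 groups with 3 libraries each. Cells of VCaP_DMSO, labelled wild type, had only the solvent. VCaP_ENZ held VCaP cells labelled wild type and given 10 µM enzalutamide, an inhibitor of the androgen receptor, for 96 h. VCaP16 held an enzalutamide-resistant VCaP line, also labelled wild type and kept in 16 µM of the drug. Every VCaP16 library had the drug, so effects of drug and of line cannot be told apart in a comparison with VCaP_DMSO, and the drug groups differ in dose. VCaP16 is 1 line, and the labels do not say whether replicates are separate cultures, so p-values measure only the spread between these libraries. The lists held 53646 to 68921 peaks on chromosomes 1 to 22 and X that covered 25.9 to 36.4 Mb, and the longest were VCaP16 replicate 3 and VCaP_ENZ replicate 2. Read depth is unknown, because the lists hold no counts. The lists carry no gene names, so markers of prostate cells were not checked.

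HOX genes encode homeodomain transcription factors that give cells their position along the body axis. Within a cluster the genes stand in the order in which they are used from head to tail, low numbers in anterior and high numbers in posterior tissue, and Polycomb proteins keep the unused genes closed. Posterior members of the HOXA and HOXD clusters, HOXA13 and HOXD13 among them, are known for their part in the development of the prostate. The RefSeq gene table, which is on GRCh38.p14 and was used only for names and order, lists 38 genes in the 4 clusters without HOXB13. By ascending coordinate HOXA ends with HOXA13, and HOXB without HOXB13 runs from HOXB1 to HOXB9. HOXC runs from HOXC13 to HOXC4 and HOXD from HOXD13 to HOXD1.

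Open sequence in HOXA lay mostly in the upper-coordinate 100 kb, on the side of HOXA13. The promoters of HOXA2, toward the sparse end, and of HOXA13, the posterior gene at the other end, are shown because they differ in the CpG dinucleotides that many promoters share. Both are read 5′ to 3′ on the minus strand from RefSeq on GRCh38.p14, from 250 bases before to 50 bases after the gene start, with each CG in capitals. The HOXA2 promoter lies at chr7:27102634-27102933 and that of HOXA13 at chr7:27200042-27200341 on that build, which is not the build of the peaks. No hg19 genome or annotation was used, so which peak covers which promoter is not known here.
HOXA2: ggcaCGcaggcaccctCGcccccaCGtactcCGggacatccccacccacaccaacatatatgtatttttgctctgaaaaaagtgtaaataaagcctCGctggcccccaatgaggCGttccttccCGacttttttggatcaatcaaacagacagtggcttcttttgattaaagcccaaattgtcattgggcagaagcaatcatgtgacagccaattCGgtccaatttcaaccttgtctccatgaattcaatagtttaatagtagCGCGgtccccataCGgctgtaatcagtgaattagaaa
HOXA13: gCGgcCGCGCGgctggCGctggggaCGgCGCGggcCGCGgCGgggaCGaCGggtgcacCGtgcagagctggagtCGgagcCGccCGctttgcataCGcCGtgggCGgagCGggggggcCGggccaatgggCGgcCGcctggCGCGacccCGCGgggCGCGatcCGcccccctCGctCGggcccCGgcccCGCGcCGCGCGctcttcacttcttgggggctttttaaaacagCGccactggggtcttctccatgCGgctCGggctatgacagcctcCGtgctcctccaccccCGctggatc
The HOXA2 promoter held 11 CG on the strand shown, which reads the same on the other strand, and 54.7% of all promoters in the table held as many or more. The HOXA13 promoter held 44, a number reached by 4.19% of promoters. The pair does not stand for a trend along the cluster. Among HOXA genes with a single listed promoter, HOXA4 had 27 CG, HOXA6 29, HOXA7 31, HOXA9 22 and HOXA11, next to HOXA13, 13. Over the 27 promoters listed for 20 of the 38 genes the median was 22 CG per 300 bases, with a range of 0 to 44, against 14 over all 35116 promoters. HOXA3 has several entries among the 27, HOXC4 and HOXC5 share the same sequence, and HOXB has only HOXB1. These medians thus describe mostly HOXA and HOXD. The median GC content was 58% in the HOX promoters and 58.7% in all.

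In HOXA, HOXB and HOXC more of the covered sequence lay on one side of the window, and HOXD was nearer to even. In HOXA few peaks were called in the first 90 kb of the window, and 53.1 kb of it held no region called in all 9 libraries. Peaks stood close together from 90 to 150 kb from the window edge, and HOXA-r19 and HOXA-r20 lay apart from them near the upper end. The upper-coordinate 100 kb of the HOXA window held 71.5% of the covered sequence. The posterior genes stand at the upper-coordinate end of this cluster.
In HOXB the upper-coordinate 75 kb held 80.9% of the covered sequence, and the longest stretch without a peak was 24.2 kb (chr17:46599899-46624135). In HOXC the upper-coordinate 80 kb held 67.8%, and the first 32.0 kb (chr12:54300001-54332046), at the HOXC13 end, had no peak. In these 3 windows each of the 9 libraries had more covered sequence in the upper than in the lower part. HOXD had 43.5% in the upper-coordinate 75 kb, 2.01 kb against 2.61 kb in the lower part. The lower part held more in 9 of 9 libraries, though by little in some (2.51 against 2.45 kb in VCaP_ENZ replicate 1), and each part held 3 of the 6 HOXD regions called in all 9 libraries. Its longest stretch without a peak was 36.6 kb (chr2:177005923-177042508). By gene order alone, the part with less covered sequence was thus on the anterior side in HOXA, HOXB and HOXD and on the posterior side in HOXC. The windows may reach beyond the genes, so an empty outer stretch is not shown to lie within a cluster.

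**Figure D1:**
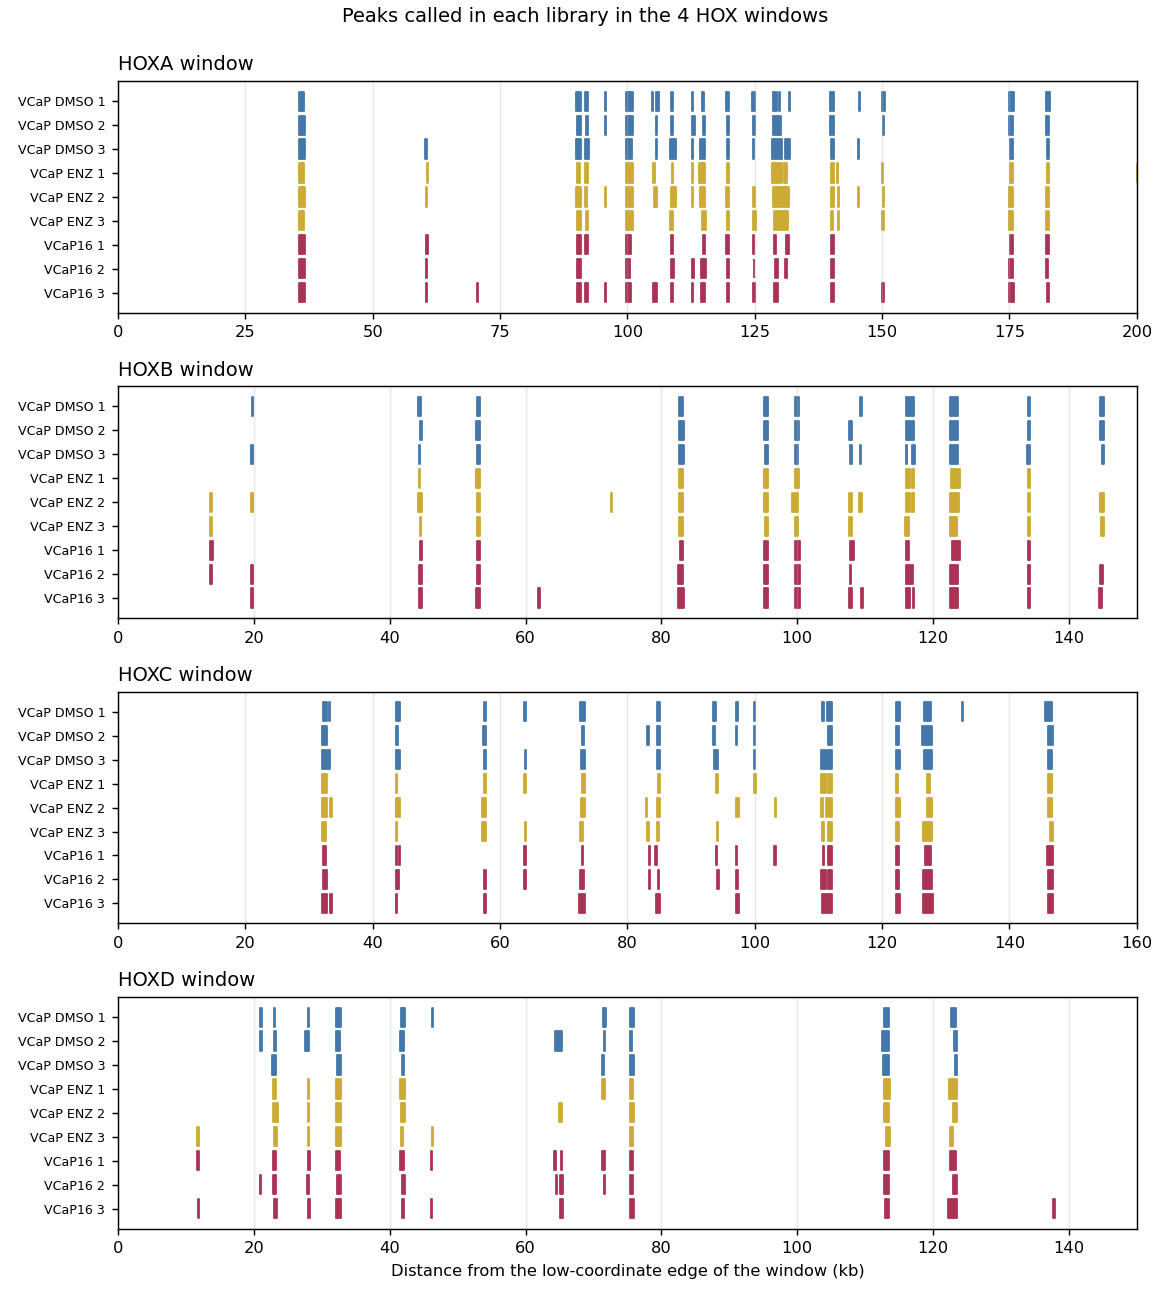
Peaks of each library in the 4 HOX windows, by distance from the low-coordinate edge of the window in kb, with 1 row per library (blue VCaP_DMSO, yellow VCaP_ENZ, red VCaP16). Bars have an outline so that short peaks stay visible. The first 32.0 kb of HOXC are empty in every row, and HOXA peaks crowd between 90 and 150 kb.

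The regions of the HOX clusters were called more steadily than most. Of the 66 members, 32 (48.5%) were called in all 9 libraries, against 34.9% of all merged regions, and 6 (9.09%) were called in 1 library, against 22.6%. The other 28 were called in 2 to 8 libraries. Members called in all 9 numbered 10 in HOXA, 8 in HOXB, 8 in HOXC and 6 in HOXD. The members called in 1 library were HOXA-r3, HOXA-r21, HOXB-r5, HOXB-r6, HOXC-r15 and HOXD-r14. Of these 6, 4 came from the longest lists, VCaP16 replicate 3 and VCaP_ENZ replicate 2. The matching share over all regions called in 1 library was not counted, so this is not shown to be particular to the members. The members were also wide: the median width was 664 bp against 501 bp over all regions, and 956 bp against 838 bp among those called in all 9. A merged region spans all overlapping peaks of the lists, so calls in more libraries can widen it by construction. Width over all members is therefore not separate from the number of calls, and the part of width in the calls was not tested.

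Their scores were low all the same. The authors' score of a peak moves with depth and is used here only to rank peaks within a list. The highest score in each of the 33033 regions called in all 9 libraries was ranked within each library, and the rank is given as a percent from the top. The median rank of the 32 HOX members was 67.6%, against 51.1% over all these regions. The medians were 60.8% in HOXA, 54.7% in HOXB, 79.7% in HOXC and 78.7% in HOXD. Of the 32, 6 had a median in the upper 50%, 3 of them in HOXA and 3 in HOXB, and 1 had a median in the upper 25%.
That one was HOXB-r7 (chr17:46662485-46663366), at 21.5%. Its ranks were 26.7, 20.6 and 15.8% in VCaP_DMSO, 23.7, 25.0 and 21.5% in VCaP_ENZ, and 19.7, 25.8 and 20.3% in VCaP16, so the groups overlapped. HOXB-r14 (chr17:46713872-46714257) stood at 39.6%, HOXB-r13 (chr17:46702511-46703911) at 42.7%, HOXB-r9 (chr17:46679246-46680354) at 51.9% and HOXB-r8 (chr17:46675127-46675744) at 57.4%. These 5 best-ranked HOXB regions all lie in the upper-coordinate 75 kb of the window, on the HOXB9 side.
In HOXA the best-ranked region was HOXA-r11 (chr7:27214114-27215418), with a median of 25.0%. Its ranks were 15.3, 31.9 and 17.1% in VCaP_DMSO, 27.1, 19.4 and 8.73% in VCaP_ENZ, and 28.3, 25.0 and 26.5% in VCaP16. VCaP16 lay within the range of the other libraries. Other HOXA regions among the best-ranked were HOXA-r12 (chr7:27219425-27219931) at 43.0%, HOXA-r19 (chr7:27274857-27275824) at 56.5% and HOXA-r15 (chr7:27239692-27240587) at 56.9%.
No region of HOXC or HOXD had a median rank in the upper 50%. The best of HOXC were HOXC-r1 (chr12:54332047-54333681) at 52.6%, HOXC-r16 (chr12:54445632-54446842) at 58.3%, HOXC-r14 (chr12:54426331-54427914) at 62.9%, HOXC-r12 (chr12:54410437-54412204) at 69.9% and HOXC-r2 (chr12:54343660-54344345) at 89.6%. The best of HOXD were HOXD-r5 (chr2:176962053-176962829) at 53.2%, HOXD-r11 (chr2:177005320-177005922) at 65.4%, HOXD-r12 (chr2:177042509-177043691) at 71.4%, HOXD-r3 (chr2:176952669-176953576) at 85.9% and HOXD-r13 (chr2:177052270-177053552) at 86.4%.

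**Figure D2:**
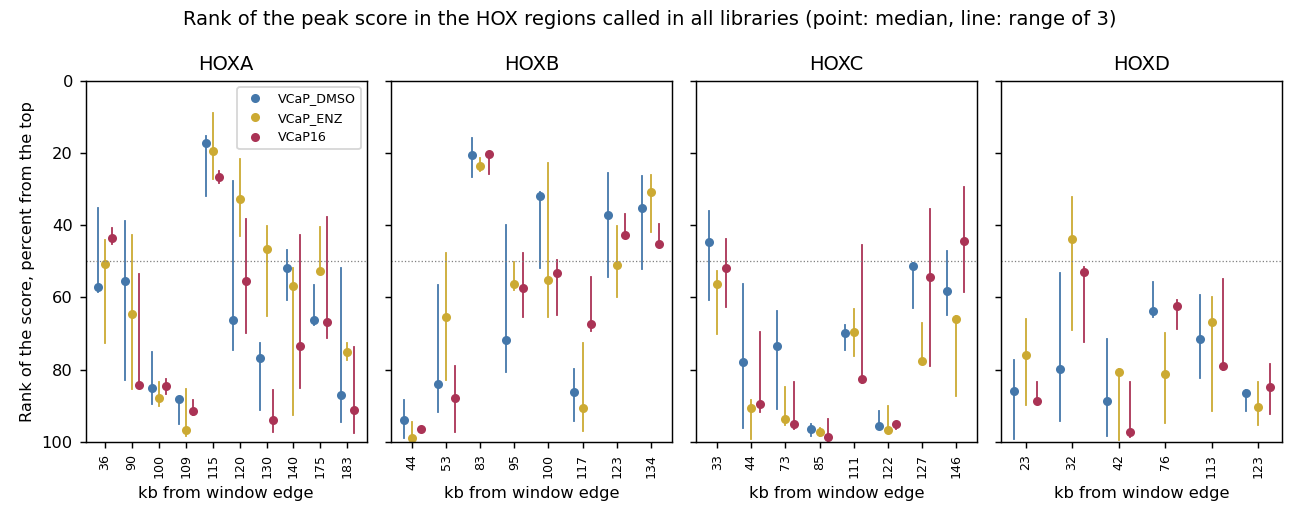
Rank of the authors' score, in percent from the top among the 33033 regions called in all 9 libraries, for the 32 HOX regions in that set, by distance from the window edge in kb. Points are the median and lines the range of the 3 libraries of a group. Regions of HOXC and HOXD sit mostly below the 50% line, and the highest region, at a median of 21.5%, is in HOXB.

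In HOXA the covered sequence was lowest in the VCaP16 libraries, but the 3 groups did not differ in kb by the exact permutation test. Peaks covered 11.4, 11.0 and 11.9 kb of the HOXA window in VCaP_DMSO, 10.7, 14.5 and 11.1 kb in VCaP_ENZ, and 8.13, 8.24 and 10.6 kb in VCaP16. Each VCaP16 library was below each of the other 6, the highest VCaP16 value by a small step. The group means were 11.4 ± 0.438 kb, 12.1 ± 2.08 kb and 9.01 ± 1.42 kb (SD, n = 3). An exact permutation test over 280 splits into 3 groups gave p = 0.075 (two-sided; 0.3 after Benjamini-Hochberg adjustment over the 4 windows).
Set against the 6 VCaP libraries together, a contrast chosen after the values were seen, VCaP16 differed in HOXA by -2.77 kb (exact permutation p = 0.0119, the smallest that 84 splits can give; 0.0476 after adjustment over the 4 windows), lower in 3 of 3 libraries. Without VCaP16 replicate 1 the difference was -2.33 kb (exact permutation p = 0.107), and without VCaP16 replicate 2 it was -2.38 kb (exact permutation p = 0.0714). Without the widest region, HOXA-r14, it was -1.34 kb and did not pass (exact permutation p = 0.155), so the call in kb rests on that region.
The VCaP16 lists were not short: they covered 28.2 to 36.4 Mb in all, against 25.9 to 32.5 Mb in the other groups. Per Mb covered by the whole list, HOXA held 401 ± 38.6 bases for VCaP_DMSO, 427 ± 20.5 for VCaP_ENZ and 288 ± 5.11 for VCaP16 (SD, n = 3). On this scale, which was added after the data were seen, the exact permutation test of 3 groups gave p = 0.0107 (0.0429 after adjustment over the 4 windows). With labels permuted only among libraries of the same replicate number, the exact permutation test gave p = 0.0556, which ends the call. Without HOXA-r14 the test over all splits gave p = 0.0179 on this scale (exact permutation test, not adjusted), a setting also added after the data were seen.

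**Figure D3:**
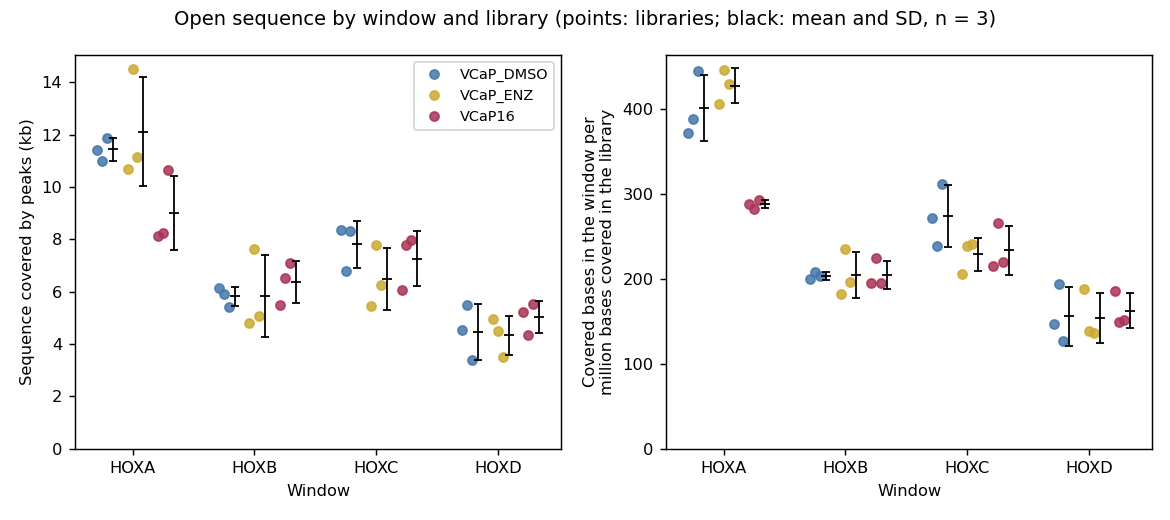
Sequence covered by peaks in each window, in kb (left) and in bases per Mb covered by the whole list (right), with 1 point per library and the mean and SD of each group of 3 in black. The VCaP16 points lie below all others in HOXA in both panels and overlap the others in HOXB, HOXC and HOXD.

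In the other clusters the groups overlapped. In HOXB the covered sequence was 5.82 ± 0.363 kb for VCaP_DMSO, 5.85 ± 1.56 kb for VCaP_ENZ and 6.37 ± 0.808 kb for VCaP16 (SD, n = 3; exact permutation p = 0.771). HOXC covered 7.81 ± 0.886, 6.49 ± 1.19 and 7.27 ± 1.06 kb in the same order (SD, n = 3; exact permutation p = 0.382). HOXD covered 4.47 ± 1.07, 4.33 ± 0.735 and 5.05 ± 0.606 kb (SD, n = 3; exact permutation p = 0.579). VCaP16 minus the 6 VCaP libraries was 0.536 kb in HOXB, 0.115 kb in HOXC and 0.647 kb in HOXD, against -2.77 kb in HOXA; the difference between clusters was not tested.
The parts of the HOXA window were set against the 6 VCaP libraries in the same way, and none passed after adjustment. In the upper-coordinate 100 kb the 6 VCaP libraries covered 7.97 to 11.2 kb and the VCaP16 libraries 4.95 to 6.98 kb, a difference of -2.89 kb (exact permutation p = 0.0119, or 0.0952 adjusted over the 8 window parts). In the lower-coordinate 100 kb the difference was 0.126 kb (exact permutation p = 0.69). The upper and lower parts were not tested against each other. In the 1000 kb on each side of the window together, VCaP16 covered 20.5 ± 2.94 kb (SD, n = 3) and the 6 VCaP libraries 20.2 ± 2.32 kb (SD, n = 6; exact permutation p = 0.893). Among 1229 tiles of 200 kb with a mean of at least 5 kb covered, 0.0814% (1 tile) were lower and 2.03% higher in every VCaP16 library than in any of the 6 others. The 1 lower tile does not touch HOXA, so no tile of HOXA met this rule. The ratio of mean covered sequence in VCaP16 to that in the 6 others had a median of 1.06 over all tiles. In the HOXA window, which the tile borders cut, the ratio was 0.765. The tile chr7:27200001-27400000 holds the upper-coordinate 100 kb of the window and sequence beyond it. It covered 6.38 to 9.13 kb in VCaP16 and 9.02 to 12.8 kb in the others, which overlap. The part of the tile borders in this was not tested.

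**Figure D4:**
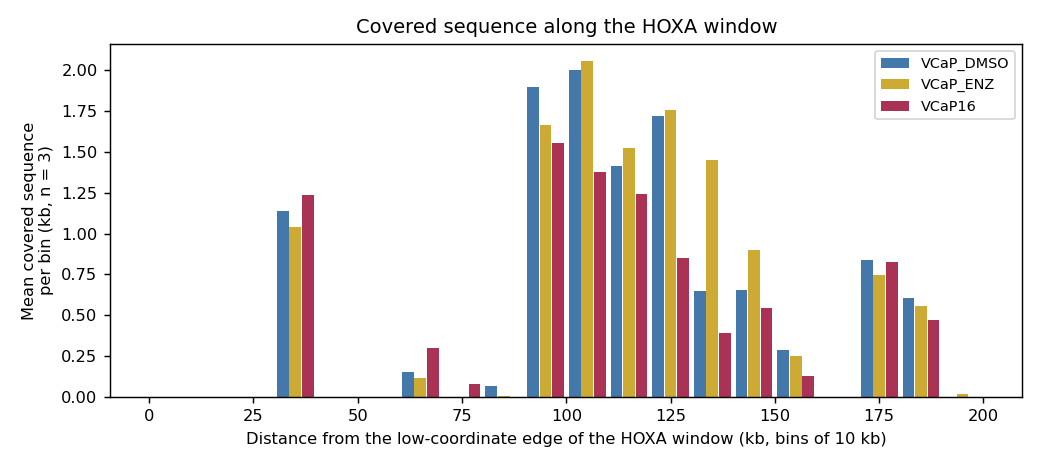
Mean sequence covered per 10 kb bin along the HOXA window, in kb, by group (n = 3; bars carry no error). VCaP16 bars are lower than both others between 90 and 150 kb from the window edge.

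HOXA-r14 (chr7:27228422-27232008) carried much of the difference. At 3587 bp it was the widest of the 66 members, and a library called up to 4 separate peaks in it. Called sequence in it was 1321, 1659 and 2259 bp in VCaP_DMSO, 2327, 3122 and 2795 bp in VCaP_ENZ, and 741, 972 and 758 bp in VCaP16. The 3 groups did not overlap: the region was called longest under short exposure to the drug and shortest in the resistant line. The step between VCaP_DMSO and VCaP_ENZ was small, from 2259 to 2327 bp. The share of all regions in which the 3 groups separate was not counted.
Its score followed the same order. Ranks from the top were 91.2, 72.7 and 76.7% in VCaP_DMSO, 46.5, 65.0 and 40.2% in VCaP_ENZ, and 97.2, 85.7 and 94.1% in VCaP16. The VCaP_ENZ libraries stood above all others, while VCaP_DMSO replicate 1 fell among the VCaP16 values. The share of all regions with such an order of ranks was not counted. The normal score places the ranks of a library on a normal curve, and 1 unit is 1 SD of that curve. On this scale VCaP16 was below VCaP_ENZ by 1.50 (change -1.50 ± 0.286 SE), which limma did not call (adjusted p = 0.106 over 33033 regions). VCaP_ENZ minus VCaP_DMSO was 0.88 (limma adjusted p = 0.321), and VCaP16 minus VCaP_DMSO was -0.62 (limma adjusted p = 0.366).

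**Figure D5:**
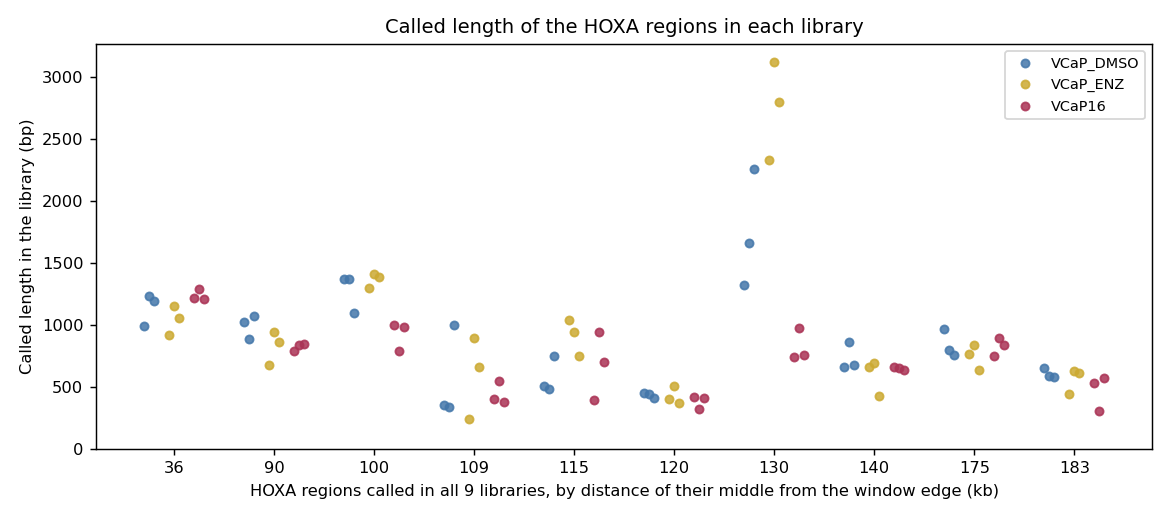
Called length in bp of the 10 HOXA regions called in all 9 libraries, with 1 point per library, by distance from the window edge in kb. At 130 kb, HOXA-r14, the VCaP_ENZ points reach 3122 bp and the VCaP16 points stay below 1000 bp, and at 100 kb, HOXA-r7, the VCaP16 points are again below all others.

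Other HOXA regions were also called shorter in VCaP16. In HOXA-r7 (chr7:27199651-27201103) the called lengths were 1372, 1370 and 1094 bp in VCaP_DMSO, 1299, 1414 and 1384 bp in VCaP_ENZ, and 1002, 793 and 985 bp in VCaP16. Its rank did not move with its length: it was 82.5 to 86.9% in VCaP16 and 75.0 to 90.1% in the others. Of the 32 members called in all 9 libraries, 4 were shorter in every VCaP16 than in any VCaP_DMSO library, against a background of 4.38% over the 33033 regions, and all 4 (HOXA-r4, HOXA-r7, HOXA-r14 and HOXA-r20) lie in HOXA. In HOXA-r20 the margin was very small: the longest VCaP16 call was 574 bp and the shortest VCaP_DMSO call 576 bp. In HOXA-r4 these were 842 and 889 bp. Members shorter in every VCaP16 than in any VCaP_ENZ library numbered 2, HOXA-r7 and HOXA-r14 (background 3.05%). The same 2 were shorter in VCaP16 than in all 6 VCaP libraries (background 0.811%), and 0 were longer than in all 6 (background 2.35%). The opposite direction held 1 region against VCaP_DMSO, HOXB-r9 (background 7.37%), and 2 against VCaP_ENZ, HOXC-r16 and 1 in HOXA (background 7.74%). Between the VCaP groups, HOXA-r14 was longer in every VCaP_ENZ library (background 4.45%) and HOXB-r7 longer in every VCaP_DMSO library (background 5.87%).
Bases were counted next, since a wide region can hold parts that only some libraries call. Of 51719 bases of the windows called in any library, 1156 (2.24%) were called in every VCaP_ENZ and no VCaP16 library, against a background of 0.39% of all called bases, and 1154 of them lie in HOXA. Bases called in every VCaP_DMSO and no VCaP16 library numbered 909 (1.76%; background 0.51%), of which HOXA held 575, HOXC 198 and HOXB 136. HOXA-r14 alone gave 792 and 514 of these bases. Without the bases it gave, the counts were 364 (0.704%) and 395 (0.764%), still as shares of all 51719 bases. These shares were nearer to the background but above it, and the background kept its own wide regions. In the other direction VCaP16 had 162 bases (0.313%; background 1.23%) that no VCaP_DMSO library had, and 328 (0.634%; background 0.976%) that no VCaP_ENZ library had. VCaP_ENZ had 597 (1.15%; background 0.553%) that VCaP_DMSO lacked, 466 of them in HOXA-r14, and VCaP_DMSO had 244 (0.472%; background 0.569%) that VCaP_ENZ lacked.

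Whole regions rarely appeared or vanished. Among the 59 consensus members, called in at least 2 of 3 libraries of a group, HOXA-r16 (chr7:27241168-27241574) was called in 3 of 3 VCaP_ENZ libraries, over 231, 314 and 292 bp, and in no other library. It was the 1 member called in VCaP_ENZ and not VCaP_DMSO (background 0.936% of 66108 consensus regions) and the 1 called in VCaP_ENZ and not VCaP16 (background 0.588%). It lies next to HOXA-r15, which all 9 libraries called. HOXC-r10 (chr12:54399834-54400168) was called in 3 of 3 VCaP_DMSO libraries, over 171, 180 and 189 bp, in VCaP_ENZ replicate 1 over 228 bp, and in no VCaP16 library. It was the 1 member called in VCaP_DMSO and not VCaP16 (background 0.762%). The scores of both were at most 10.4, in lists whose lowest score is 2. The count was 0 for members of all VCaP16 lists that were absent from VCaP_DMSO (background 2.33%) or from VCaP_ENZ (background 1.62%), and 0 for members of all VCaP_DMSO lists that were absent from VCaP_ENZ (background 0.799%). With 59 members, 1 call or none is too few to set apart from these backgrounds.
HOXC-r9 (chr12:54396982-54397565), singled out after its values were seen, went toward VCaP16. In lists cut to the best 53646 peaks each, it ranked at 48.6, 18.6 and 54.2% from the top in the VCaP16 libraries and at 83.1 and 86.7% in VCaP_DMSO replicates 1 and 2, and it was missing from the other 4. In the full lists VCaP_ENZ replicate 2 also called it. Its neighbour at higher coordinates is HOXC-r10, which VCaP16 lacked.

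Ranks of the score showed no called change in any HOX region. Of the 32 members, limma called 0 higher and 0 lower in each of the 3 comparisons at an adjusted p of 0.05 over 33033 regions. The background was 0 in both directions for VCaP_ENZ against VCaP_DMSO, 0.512% higher and 0.263% lower for VCaP16 against VCaP_DMSO, and 0.00303% higher and 0% lower for VCaP16 against VCaP_ENZ. At an unadjusted p below 0.05 the members numbered 3, 2 and 5 in that order (backgrounds 10.8%, 14.2% and 12.3%). The median change of the members was -0.13, -0.06 and -0.04 normal score units, against 0.00, -0.02 and 0.00 over all regions, with 11, 9 and 15 of 32 positive. The comparisons share libraries and so are not independent of each other.
In HOXC 1 of 8 regions was higher in VCaP_ENZ than in VCaP_DMSO by the fitted change, with a median of -0.40, and in HOXA 5 of 10, with a median of -0.01. For VCaP16 against VCaP_DMSO the count in HOXC was also 1 of 8, with a median of -0.11. There it was 2 of 8 in HOXB, 3 of 10 in HOXA and 3 of 6 in HOXD. None of these passed the test. In HOXA the region with the largest fitted change was HOXA-r14 in each comparison, and the largest of each other window were as follows. For VCaP_ENZ minus VCaP_DMSO they were -0.76 in HOXB-r3 (chr17:46624136-46624774), -0.74 in HOXC-r2 and 0.87 in HOXD-r5 (limma adjusted p from 0.435 to 0.586). For VCaP16 minus VCaP_DMSO they were 0.82 in HOXB-r12 (chr17:46695902-46697279), -0.70 in HOXC-r5 (chr12:54372436-54373379) and 0.59 in HOXD-r5 (limma adjusted p from 0.278 to 0.524). For VCaP16 minus VCaP_ENZ they were 0.92 in HOXB-r12, 0.81 in HOXC-r16 and 0.65 in HOXD-r11 (limma adjusted p from 0.266 to 0.345).
HOXB-r12 ranked at 79.9, 86.2 and 94.3% in VCaP_DMSO, 97.1, 90.7 and 72.6% in VCaP_ENZ, and 67.4, 54.4 and 69.2% in VCaP16. Each VCaP16 library was nearer the top than any other library, but the region did not pass the test. It was named for its large change, and the share of all regions with ranks separated in this way was not counted.

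The share of each list's peaks that fell in the 4 windows passed the test of 3 groups, but the call was lost without any of several libraries. The share was 0.0968 ± 0.00371% of the peaks for VCaP_DMSO, 0.0903 ± 0.00249% for VCaP_ENZ and 0.0862 ± 0.00556% for VCaP16 (SD, n = 3; exact permutation p = 0.0214 over 280 splits). VCaP16 minus the 6 VCaP libraries was -0.00733 percentage points (exact permutation p = 0.0714). Without the HOXA window the exact permutation test of 3 groups gave p = 0.618, and without VCaP_ENZ replicate 2 and VCaP16 replicate 3 it gave p = 0.143. Leaving out 1 library ended the call in 5 cases, with exact permutation p = 0.121 without VCaP_DMSO replicate 1, 0.0536 without VCaP_DMSO replicate 3, 0.0679 without VCaP16 replicate 3, 0.05 without VCaP_ENZ replicate 1 and 0.0607 without replicate 2 of that group. The number of peaks in the windows was 51 to 58 in VCaP_DMSO, 47 to 56 in VCaP_ENZ and 51 to 55 in VCaP16 (exact permutation p = 0.664). The VCaP16 lists were on average longer. With lists cut to the best 53646 peaks each, the exact permutation test of 3 groups gave p = 0.0107 for the share. VCaP16 minus the 6 VCaP libraries was then -0.0115 percentage points (exact permutation p = 0.0119). The part of list length in the share was not tested beyond this setting. In HOXD alone VCaP16 had 11 to 12 peaks and the VCaP libraries 7 to 11 (exact permutation p = 0.118 for 3 groups).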

How the data were processed

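ATAC-seq peak lists of 9 libraries, deposited by the authors as 1 list per library, gave the position and score of each peak. The deposited score, whose lowest value is 2 in every list, may be the -log10 of a p or q value; no source used here says which, so it was only ranked. Tools in the submitters' processing notes are MACS2 2.2.7.1, HOMER 3.12 and BWA 0.7.15-r1140, with hg19 as the build and no roles or settings given. Per the labels' protocols, cells were crosslinked and tagmented with Tn5 in bulk; a single-cell preparation is described too, and the lists were taken as bulk. Tn5 shifting and read filters are not given in the sources used here.

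Peaks on chromosomes 1 to 22 and X were merged across lists at an overlap of 1 bp with Python 3.11.15 and pandas 2.3.3. Covered sequence was tested with two-sided exact permutation tests over libraries, whose smallest p is 0.00357 for 3 groups, 0.0119 for 3 against 6 and 0.1 for 3 against 3. Ranks of the highest score, as normal scores over the 33033 regions called in all 9 libraries, were fitted with limma 3.58.1 with Benjamini-Hochberg adjustment over all of these. Counting and fitting were checked on simulated data. The windows, comparisons and rules were chosen with earlier results of these data known. Named regions are the 5 best-ranked per window, those called in 3 of 3 libraries of a group and 0 of 3 of another, the largest rank change per window and comparison, and the longest stretch without a peak. In HOXA, 1 region that this rule names and the longest stretch without a peak are not reported here. Other settings were a score of at least 5, equal list lengths, windows 20 kb wider on each side, a 50% overlap, calls in 2 of 3 libraries, ranks as a percent, fits of 2 groups, leaving out libraries and a replicate block. Added after seeing the data were VCaP16 against the 6 VCaP libraries for covered sequence, bases per Mb covered by the list, and leaving out the longest lists, the HOXA window or its widest region (in kb and per Mb).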

Additional observations from a re-analysis of the deposited data

How the results depend on the processing

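Of 578 values recomputed under other settings, 502 were counted as the same. Tests and differences among them kept their call, and differences also kept their sign. Counts among them were equal or changed by a limited ratio. For example, bases in VCaP_ENZ and not VCaP16 rose from 1156 to 1644 without VCaP16 replicate 3, which was counted as the same. Their rise to 1758 without VCaP_ENZ replicate 3 was not. The spread between libraries was not part of this rule. The HOXA difference between VCaP16 and the 6 VCaP libraries ranged from -3.59 to -2.22 kb when 1 library was left out, and it was -1.34 kb without its widest region. The p of the 3 groups for HOXA was 0.0393 to 0.243 with 1 library left out (exact permutation tests), 0.0214 with equal lists, 0.0107 per Mb covered (0.0179 without the widest region), and 0.0286 without the longest lists. The HOXC difference reversed to -0.0943 kb at a score of at least 5, -0.268 kb with equal lists, -17.9 bases per Mb covered and -0.115 kb without the longest lists, and it ranged from -0.240 to 0.721 kb with 1 library left out: -0.228 kb without VCaP_ENZ replicate 1, -0.0648 kb without VCaP_ENZ replicate 3, -0.137 kb without VCaP16 replicate 2 and -0.240 kb without VCaP16 replicate 3. The cause was not tested. The share in the 4 windows gave an exact permutation p of 0.0214 to 0.121 with 1 library left out. It gave 0.143 without the longest lists, 0.618 without HOXA and 0.0107 with equal lists. The difference of the share was -0.00914 to -0.00413 points with 1 left out and -0.0115 points with equal lists (exact permutation p = 0.0119).

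At a score of at least 5 the members called in VCaP_ENZ and not VCaP_DMSO fell to 0, in VCaP_ENZ and not VCaP16 to 0, and in VCaP16 and not VCaP_ENZ rose to 1. With equal lists the first was 0 and the last 1. At a 50% overlap VCaP_ENZ and not VCaP16 gave 2. With calls in 2 of 3 libraries the counts were 2 (VCaP_ENZ, not VCaP_DMSO), 2 (VCaP16, not VCaP_DMSO), 1 (VCaP16, not VCaP_ENZ), 1 (VCaP_DMSO, not VCaP_ENZ) and 2 (VCaP_DMSO, not VCaP16). With 1 library left out these counts were 1 to 2, 0 to 1, 0 to 2, 0 to 2 and 1 to 2 in the same order, and 1 to 2 for VCaP_ENZ and not VCaP16. Bases at a score of at least 5 were 370 for VCaP_ENZ and not VCaP_DMSO, 297 for VCaP16 and not VCaP_DMSO, 146 for VCaP_DMSO and not VCaP_ENZ, and 521 for VCaP_DMSO and not VCaP16. With 1 library left out they ranged from 597 to 1735, 162 to 888, 244 to 864 and 909 to 1805 in that order, from 1156 to 2805 for VCaP_ENZ and not VCaP16, and from 328 to 949 for VCaP16 and not VCaP_ENZ.

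Same-numbered libraries had correlations of deviations of -0.00557 to 0.0455, and 4 of 9 libraries correlated best with their own number, so the numbers were not taken as pairs. With a replicate block HOXA gave an exact permutation p of 0.139 for 3 groups in kb, 0.0556 per Mb covered, which ends that call, and 0.037 for VCaP16 against the 6, and the share 0.0278. The block cut the regions limma called for VCaP16 against VCaP_DMSO over the genome from 169 higher and 87 lower to 16 and 7. No HOX region was called under any setting of the rank fit. Depth is unknown, so an uncalled peak is not shown to be closed chromatin.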
